A study of Bos taurus with 15 samples.

Results

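Respiratory complex I, the NADH dehydrogenase at the entrance of the mitochondrial respiratory chain, was examined through 37 genes for its nuclear-encoded subunits in the biceps brachii of cattle. The 37 were a list of gene symbols looked up in the array annotation. The rule itself uses no measured value, but the list was proposed with earlier results of these data known. All 37 were found, each with 1 probe, among 14748 genes tested. RNA of this arm muscle, taken at the slaughterhouse, was hybridised to 1-colour Agilent bovine arrays, with a separate array for each animal. Prednisolone, a glucocorticoid drug, had been fed to 8 cattle at 30 mg per head every day for 35 days, and 7 others were controls. The sources used here name no age or breed and call the animals cows. Animals are called by their group letter and number, so C18 is control 18 and P28 is treated animal 28. RNA was extracted from controls with the RNeasy Mini kit and from treated animals with TRIzol and a RNeasy MinElute cleanup, so treatment and extraction cannot be told apart. The treatment field of the controls lists the growth promoters Finaplix and Revalor and dexamethasone, although each of these samples is labelled CONTROL. Whether any control animal received them is not stated, and a difference between trials cannot be told apart from treatment either.

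Complex I takes electrons from NADH in an arm that reaches into the matrix, passes them along iron-sulfur clusters to ubiquinone, and uses the energy to pump protons through an arm in the inner membrane. The catalytic core is surrounded by accessory subunits that hold the enzyme together and are needed for its assembly. The proton pumps themselves are encoded by mitochondrial DNA, so the nuclear and mitochondrial genomes both contribute. In skeletal muscle the complex is most plentiful in oxidative fibres.

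The muscle identity of the samples was checked first. Of the slow fibre list, 7 of 8 genes were measured and all 7 lay well above background on all 8 treated arrays, among them the slow myosin MYH7 at a mean log2 intensity of 17.95 in treated and 18.05 in control animals. Transcripts of testis germ cells were also found, with a mean deviation of 6 of the 10 listed genes that ran from -0.98 to 4.41 on the log2 scale in controls and from -3.89 to 3.70 in treated animals. Their highest arrays were C20 and P31, and the group differences of the subunits, their spread and their co-variation were also computed without this pair. Of the 10 genes, 3 lay well above background on all 8 treated arrays and 1 on none. The protamine PRM1 lay well above it on 6 of them. Its values were 9.51 ± 5.20 (SD, n = 8) after prednisolone and 14.53 ± 2.69 (SD, n = 7) without it. The other listed protamine, PRM2, lay well above background on 0 treated arrays, at means of 1.45 in treated and 1.41 in control animals. Beyond that, the part of these transcripts in the complex I values was not tested. In whole muscle, fewer cells of a type and less RNA per cell cannot be told apart.

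All 37 subunits had a value on all 15 arrays and lay well above background on all 8 treated arrays, and none was saturated there. The spots of a probe, 2 per array, differed by a median of 0.0502 on the log2 scale for the subunits and 0.128 for all probes with both spots measured. Intensities of different probes are not compared, because each probe has its own binding strength.

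No complex I subunit passed the test for a difference between prednisolone and control animals. With limma and Benjamini-Hochberg adjustment over 20894 probes, 0 of 37 subunits had an adjusted p under 0.05, beside 0% of all genes, and the smallest of the 37 adjusted p-values was 0.993. At an unadjusted p under 0.05 there were 0 of 37 subunits, against 3.25% of all genes (480 of 14748). The groups overlapped for all 37 subunits, and 0.217% of all genes had groups that did not overlap. Among the 10743 genes with a value on all arrays, as the subunits had, this share was 0%. The log2 difference of means, treated minus control, was negative for 22 subunits and positive for 15, or 59.5% negative beside 47.8% of all genes. It ran from -0.16 for NDUFB3 to 0.12 for NDUFB9, with a median of -0.019, beside 0.010 over all genes. Without C24 only 12 subunits were negative, and without C18 there were 31, so this count rests on single control animals.

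The data bounded the size of any difference. The distance from a difference to the bound of its 95% confidence interval had a median of 0.32 log2 units for the subunits and 0.46 for all genes. For 34 of the 37 subunits the interval lay wholly within 0.5 log2 units of no difference. The outermost bounds were -0.63, for NDUFB3, and 0.60, for NDUFC1, which are folds of 0.645 and 1.51. A p above the threshold does not show that the groups were alike, and smaller shifts than these were not resolved with 7 and 8 arrays.

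**Figure D1:**
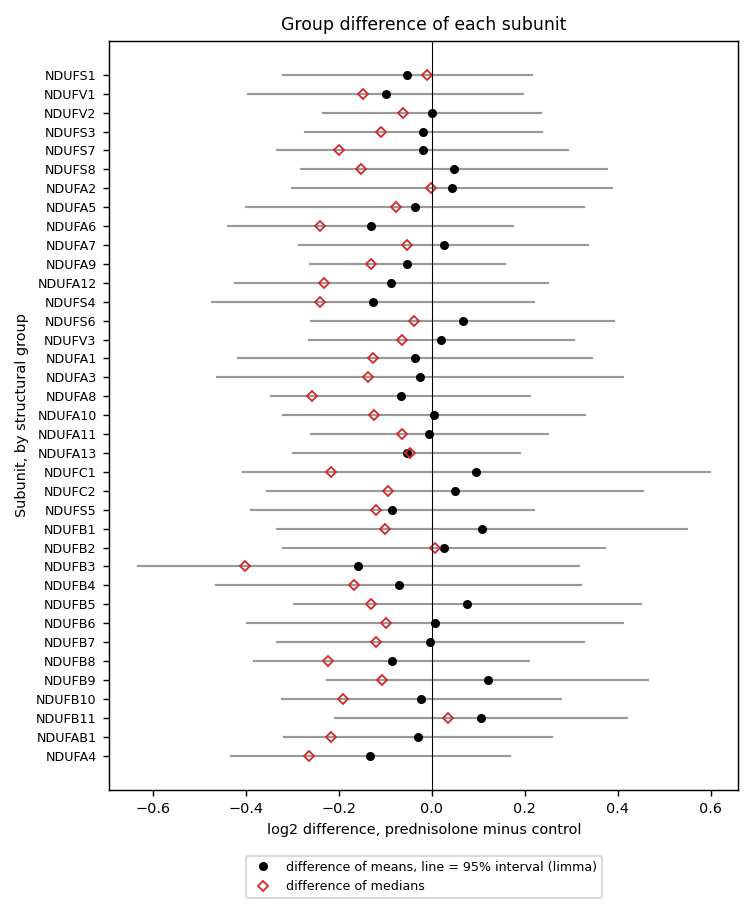
Difference between prednisolone and control animals for each of the 37 subunits, grouped by place in the complex, in log2 units. Filled circles are differences of means with 95% confidence intervals from limma, all of which include 0, and open diamonds are differences of medians, of which 35 lie below 0.

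Means and medians gave different pictures. The difference of medians was negative for 35 of 37 subunits (94.6%), beside 49.2% of the genes with a value on all arrays, and its median was -0.12, beside 0.0035 over those genes. For 13 subunits the mean was higher and the median lower in treated than in control animals. All but at most 1 of the 8 treated animals lay below the control median for 11 subunits (29.7%), beside 8.95% of those genes. These 37 genes vary together, so they do not count as 37 independent observations, and no test was made of either count. Both depended on single animals. The count of negative medians was 23 without C24, and the count of 11 became 3 without C17, 2 without C22, C23 or C24, and 20 without P28.

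The NADH-oxidising end of the complex was described by NDUFV1, NDUFV2 and NDUFS1. NDUFV1, which holds the flavin that accepts electrons from NADH, had lowest, median and highest log2 intensities of 15.64, 16.10 and 16.30 in controls and 15.57, 15.95 and 16.32 in treated animals. The groups overlapped along nearly their whole range, with P30 lowest and P27 highest, and the difference of means was -0.10 (95% interval -0.40 to 0.20, exact permutation p = 0.451). NDUFV2, an iron-sulfur protein beside it, measured 16.58, 16.83 and 17.04 in controls and 16.63, 16.76 and 17.14 in treated animals. Here C18 and C20 were lowest and P28 highest, and the difference was 0.00094 (-0.23 to 0.24), the one closest to 0 of all 37. Its sign turned negative when C18, C20, C21, P27 or P28 was left out, when C20 and P31 were left out together, with array weights, and with the values as deposited. NDUFS1, which carries several iron-sulfur clusters, differed by -0.052 (-0.32 to 0.22), with C18 lowest and C22 highest.

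The quinone-reducing core held NDUFS3, NDUFS7 and NDUFS8, of which the last pair carry the iron-sulfur clusters nearest to ubiquinone. NDUFS3 measured 15.31, 15.72 and 15.95 in controls and 15.36, 15.61 and 15.94 in treated animals. C18 was lowest and C24 highest, with P29 just below it, and the difference was -0.018 (-0.27 to 0.24), which turned positive with equal array medians and without C17, C22, C24 or P26. NDUFS7 differed by -0.019 and NDUFS8 by 0.048. P29 was the highest of all animals for NDUFS7 and P28 for NDUFS8.

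Of the 9 accessory subunits in the matrix arm, 5 were lower and 4 higher in mean in treated animals, none past the test, and their differences ran from -0.13 to 0.066. NDUFA6, a small protein of the LYR family that binds the acyl carrier, measured 14.45, 14.99 and 15.28 in controls and 14.60, 14.75 and 15.36 in treated animals. P28 was the highest animal of all and the other treated animals lay below the control median, with a difference of -0.13 (-0.44 to 0.18, exact permutation p = 0.347). NDUFS4, which stabilises the NADH-oxidising module and is a known site of mutations in Leigh syndrome, measured 13.38, 14.09 and 14.43 in controls and 13.55, 13.85 and 14.14 in treated animals. Treated animals lay inside the control range, 7 of 8 of them below the control median, and the difference was -0.13 (-0.47 to 0.22, exact permutation p = 0.437). NDUFA12, added late in assembly, had values of 13.81, 14.47 and 14.82 in controls and 14.08, 14.24 and 14.51 in treated animals. Its control SD of 0.41 (n = 7) stood beside a treated SD of 0.14 (n = 8), so the treated values sat in the middle of a wide control group, with a difference of -0.087.

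NDUFA9, a matrix arm subunit close to the quinone tunnel, had the smallest pooled SD of the 37 at 0.15. Its values were 14.89, 15.20 and 15.30 in controls and 14.90, 15.07 and 15.29 in treated animals, again with C18 lowest, and the difference was -0.052 (-0.26 to 0.16). The remaining matrix arm subunits NDUFA2, NDUFA5, NDUFA7, NDUFS6 and NDUFV3 differed by 0.044, -0.036, 0.025, 0.066 and 0.021 in that order.

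Accessory subunits of the proximal membrane arm, next to the quinone site, numbered 9, of which 6 were lower and 3 higher in mean in treated animals, none past the test. NDUFC1, a small membrane protein, had the largest spread of all subunits, with 12.53, 13.62 and 13.95 in controls and 12.94, 13.40 and 13.88 in treated animals. C18, C20 and C21 formed a low set in the controls and the other 4 a high one, which left most treated animals in between, and the difference was 0.10 (-0.41 to 0.60). Its sign turned without C18, without C20 and with array weights. NDUFA3, another small membrane subunit, measured 13.11, 13.69 and 14.23 in controls and 13.19, 13.55 and 14.21 in treated animals. P27 and P28 stood near C24 at the top, P30 and P31 near C18 at the bottom, and the difference was -0.025 (-0.46 to 0.41), positive without C23, C24, P30, P31 or P32.

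NDUFA1, a single-helix subunit encoded on the X chromosome in mammals, gave 14.71, 15.36 and 15.87 in controls and 14.96, 15.23 and 15.65 in treated animals. All treated animals fell inside the control range, and the difference was -0.036 (-0.42 to 0.35), positive without C17, C23, C24 or P31. NDUFA13, also known as GRIM19 and first described as a regulator of cell death, gave 16.49, 16.75 and 16.96 in controls and 16.23, 16.71 and 16.91 in treated animals. P32 was the lowest animal, apart from the rest, and without it the difference of -0.054 became 0.0095. NDUFA8, NDUFA10, NDUFA11, NDUFC2 and NDUFS5 differed by -0.067, 0.0046, -0.0054, 0.050 and -0.086 in that order.

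The distal membrane arm, where the farthest proton pumps sit, was described by 11 accessory subunits, 5 lower and 6 higher in mean in treated animals and none past the test. NDUFB3 had the most negative difference of means of the 37, with values of 13.01, 13.83 and 14.25 in controls and 13.04, 13.43 and 14.11 in treated animals. P28 alone lay above the control median, while C18, C20, P29 and P31 shared the lowest values, and the difference was -0.16 (-0.63 to 0.32, exact permutation p = 0.490). NDUFB9, a LYR protein like NDUFA6, had the most positive one, with 12.62, 13.23 and 13.42 in controls and 12.97, 13.12 and 13.77 in treated animals. P28 stood above all animals and C18, C20 and C21 below all treated animals, and the difference of 0.12 (-0.23 to 0.47, exact permutation p = 0.464) became 0.036 without P28.

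NDUFB8, whose protein level is widely used as a marker of assembled complex I, was the 1 subunit with all 8 treated animals below the control median. Its log2 intensities were 15.46, 16.10 and 16.32 in controls and 15.65, 15.88 and 16.09 in treated animals. C18, C20 and C21 lay among the lowest treated animals or below them, so the groups overlapped and the difference of means was -0.086 (-0.38 to 0.21, exact permutation p = 0.510). NDUFB11, encoded on the X chromosome in mammals, was one of the 2 subunits with a higher median in treated animals, at 14.25, 14.76 and 14.97 in controls and 14.42, 14.79 and 15.21 in treated animals. C18 was lowest and P28 highest, with a difference of 0.11 (-0.21 to 0.42).

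NDUFB1, a short membrane subunit, measured 13.51, 14.32 and 14.72 in controls and 13.80, 14.22 and 14.75 in treated animals, with a difference of 0.11 (-0.33 to 0.55). C18, C20 and C21 were below all 8 treated animals, and C24 and P28 were highest. NDUFB2, the other subunit with a higher treated median, gave 9.95, 10.39 and 10.54 in controls and 9.76, 10.40 and 10.88 in treated animals. P26 was highest and P31 lowest, unlike in most other subunits, and the difference was 0.026 (-0.32 to 0.37), whose sign turned without C18, C20, P26, P27, P28 or P30. NDUFB4, NDUFB5, NDUFB6, NDUFB7 and NDUFB10 differed by -0.071, 0.076, 0.0066, -0.0034 and -0.023 in that order.

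NDUFAB1, the mitochondrial acyl carrier protein that also serves fatty acid and lipoic acid synthesis, differed by -0.030 (-0.32 to 0.26). NDUFA4, which was first assigned to complex I and was later found to be a subunit of cytochrome c oxidase, had the smallest p of the list. It measured 16.64, 17.26 and 17.44 in controls and 16.66, 16.99 and 17.27 in treated animals. P32 was the 1 treated animal above the control median, C18 and C20 were lowest with P30, and the difference was -0.13 (-0.43 to 0.17, exact permutation p = 0.332). These exact permutation tests of the difference of means, two-sided and not adjusted for the 37 genes, ran over all 6435 splits of the animals. The smallest p among the 37 was 0.332, where 0.000155 is the smallest that the design allows.

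**Figure D2:**
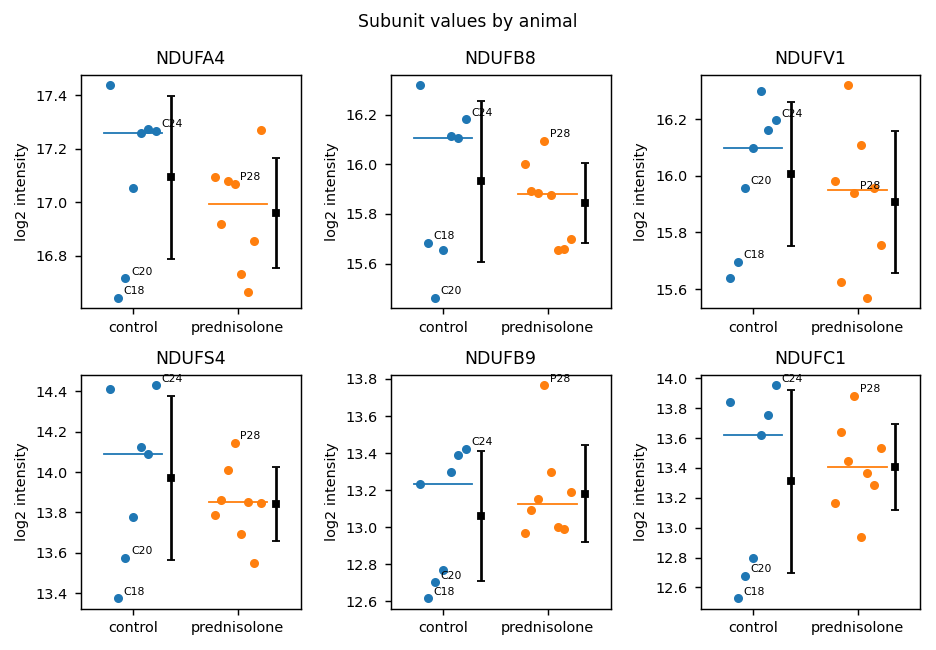
Log2 intensity of 6 subunits in each of 7 control and 8 prednisolone-treated animals. Points are animals, coloured lines are medians, and black squares with bars are means ± SD; C18 and C20 lie low and C24 high in most panels, and P28 is the highest treated animal for NDUFS4, NDUFB8, NDUFB9 and NDUFC1.

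The subunits differed far more between animals than between groups. In each animal the deviation of a subunit from its mean over all 15 animals was averaged over the 37. This mean deviation was -0.41 in C18, -0.33 in C20 and -0.16 in C21, and 0.37 in C24, 0.25 in C17, 0.17 in C23 and 0.16 in C22. Of the controls, 3 lay below 0 and 4 above it. In treated animals it ran from -0.22 in P31 to 0.13 in P27, apart from P28 at 0.35. The group means of the 7 and 8 values were 0.0087 ± 0.30 and -0.0076 ± 0.17 (SD).

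C18 lay below the subunit's mean for all 37 genes, P31 for 36 and C20 for 35. C18 was the lowest animal for 18 subunits and C20 for 12, which is 30 of 37 in all. C24 and P28 were each the highest animal for 12 subunits and C17 for 6. NDUFV1 and NDUFB2 departed from this order, with C17 the lowest control for NDUFV1.

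**Figure D3:**
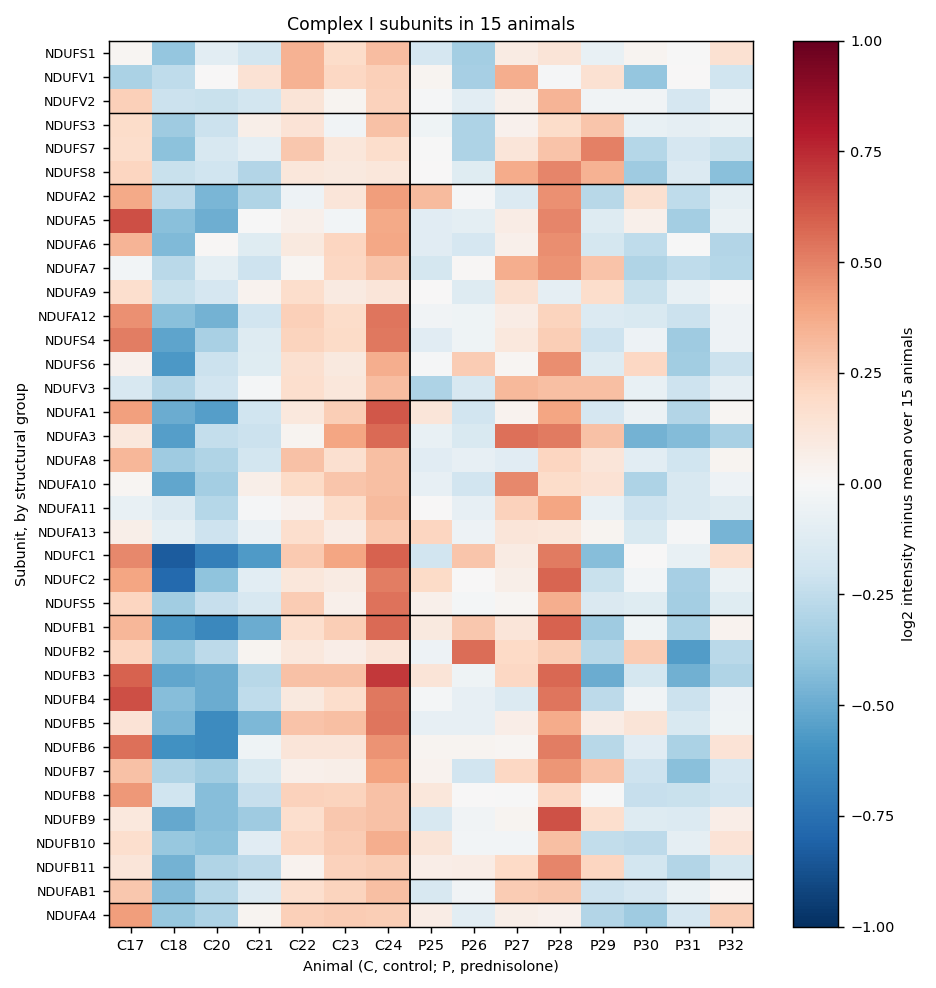
Deviation of each of the 37 subunits (rows, by place in the complex) from its own mean over 15 animals (columns), in log2 units, blue below and red above. The columns of C18 and C20 are blue and those of C24 and P28 red for nearly all subunits, while the row of NDUFV1 follows this pattern less. In the row of NDUFB2, C18 and C20 are also blue and C24 and P28 red, but P31 is lowest and P26 highest.

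The typical SD within groups was smaller for the subunits than for all genes, and it was larger in controls for most of them. The pooled SD had a median of 0.28 log2 units, from 0.15 for NDUFA9 to 0.47 for NDUFC1, beside a median of 0.36 over the 10743 genes with a value on all arrays. The control SD exceeded the treated SD for 28 of 37 subunits (75.7%), beside 55.6% of those genes. Median SDs were 0.30 in controls and 0.24 in treated animals, where all genes gave 0.36 and 0.34. NDUFA12, NDUFB5 and NDUFC1 had control SDs of 0.41, 0.46 and 0.61 against treated SDs of 0.14, 0.17 and 0.29. NDUFS8, NDUFB2 and NDUFA7 went the other way, with 0.20, 0.22 and 0.20 in controls and 0.34, 0.37 and 0.31 in treated animals. The difference in spread was not tested.

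The subunits varied together from animal to animal. After the group means were removed, the 666 pairs of subunits had a median Pearson r of 0.707 over the 15 arrays, with an interquartile range of 0.564 to 0.829. Of these pairs 83.8% had r above 0.5, beside 8.68% of pairs of all genes, whose median r was 0.0055. One component held 74.3% of the variance of the 37 subunits and the next 10.2%. These are descriptions over arrays that share their RNA sample, scaling and tissue makeup, and no p is given. The median was 0.684 without C20 and P31.

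NDUFA12 followed the mean of the other subunits most closely, with r = 0.957, and NDUFS4, NDUFA1 and NDUFV2 came next with 0.947, 0.946 and 0.944. The pair with the highest r was NDUFA12 and NDUFS4 at 0.966, neighbours in the matrix arm. At the other end stood NDUFV1 with 0.353, NDUFB2 with 0.560, NDUFA13 with 0.628 and NDUFA9 with 0.635. All 3 pairs with a negative r included NDUFV1, and the lowest was with NDUFA2 at -0.104. NDUFV1 and NDUFV2, partners in the same NADH-binding module, thus lay at opposite ends of this order.

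Groups of subunits by place in the complex overlapped widely in this measure, and no test was made between them. The median r with the other subunits was 0.90 for the distal membrane arm, 0.865 for the proximal membrane arm and 0.817 for the matrix arm accessory subunits, 0.711 for the quinone-reducing core and 0.689 for the NADH-oxidising core. The range was 0.560 to 0.941 in the distal arm, 0.628 to 0.946 in the proximal arm, 0.635 to 0.957 in the matrix arm, 0.704 to 0.746 in the quinone-reducing core, and 0.353 to 0.944 over the 3 NADH-oxidising subunits. Within the quinone-reducing core NDUFS7 had r = 0.884 with NDUFS3 and 0.853 with NDUFS8. NDUFS3 and NDUFS8 had 0.651 with each other, below the 0.746 and 0.711 that they had with the mean of the other subunits. The array annotation gives a protein mass for 33 of the 37. The 18 subunits of 15 kDa or less had a median r of 0.865 with the others, from 0.560 to 0.957. The 5 of 30 kDa or more, NDUFS3, NDUFA9, NDUFA10, NDUFV1 and NDUFS1, had a median of 0.689, from 0.353 to 0.792. Across the 33 genes, which are not independent, mass had a Spearman rho of -0.271 with this r and -0.509 with the pooled SD.

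**Figure D4:**
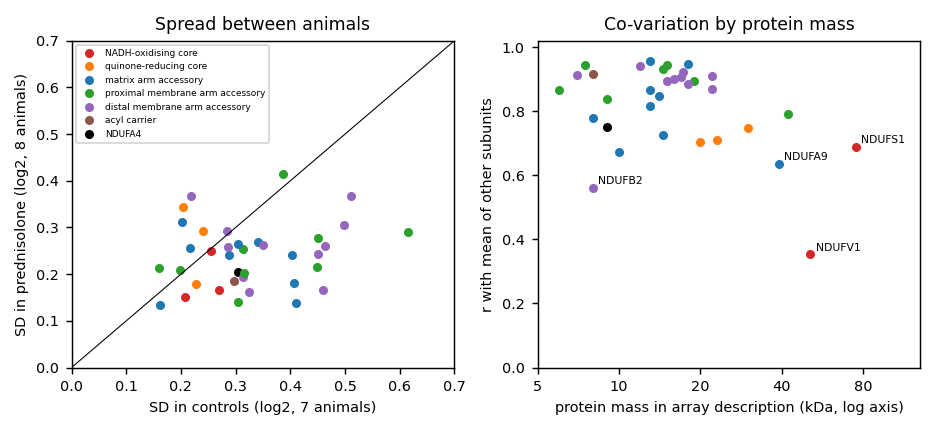
Left, SD of each subunit in 7 control animals (x axis) and 8 treated animals (y axis) in log2 units, with the line of equality, below which 28 of 37 subunits lie. Right, r of each subunit with the mean of the other subunits over 15 arrays against protein mass in kDa on a log axis for the 33 subunits with a given mass; NDUFV1 has the lowest r at 0.353.

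Pairs were more alike in controls than in treated animals. The median r was 0.875 over the 7 controls and 0.57 over the 8 treated animals, and 593 of 666 pairs (89.0%) had the higher r in controls, beside 50.6% of pairs of all genes. The treated value was 0.311 without P28 and was 0.456 with the values as deposited. The difference between groups was not tested, and the controls also covered a wider range of levels.

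As a mean, the other nuclear subunits of the respiratory chain followed complex I across animals, but not every single subunit did. The mean of 39 subunits of complexes II to V had r = 0.982 with the complex I mean over 15 arrays, with group means removed, and 0.978 without C18 and C24, the arrays farthest from the median. Assembly factors, the proteins that build complex I but do not stay in it, gave 0.928 over 14 genes. The 7 complex I subunits encoded in mitochondrial DNA gave 0.720, and 13 citrate cycle enzymes 0.686. Without C18 and C24 these became 0.558 and 0.557, and within the 8 treated animals they were 0.435 and 0.463, so both were weaker there than over all arrays. Over all arrays both lists were closer to the 6 core subunits, at 0.851 and 0.848, than to the accessory ones, at 0.685 and 0.642. Cytosolic ribosomal proteins, which have no part in respiration, gave 0.864 over 73 genes and ran the other way, with 0.502 for the core and 0.892 for the accessory subunits. All these values are of list means. Single subunits of complexes II to V ran from -0.199 for ATP5F1B, -0.164 for ATP5F1A and -0.149 for SDHA up to 0.955 for COX7C. Those encoded in mitochondrial DNA ran from 0.032 for MT-ND4 to 0.790 for MT-ND2. Citrate cycle enzymes ran from -0.396 for CS to 0.856 for SUCLG1.

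Other properties of the arrays moved with the complex I mean too. The 75th percentile of an array before the values were shifted to a common level spanned 10.56 to 10.76. It had r = -0.778 with the complex I mean. The shift takes this percentile off every value of the array, so part of this negative r is built in. The r with unshifted values is not given, and the part of the percentile in the co-variation was not tested. With the values as deposited, quantile normalization, equal medians and without C20 and P31 the median pair r stayed between 0.615 and 0.705. Slow fibre genes gave r = 0.208 and fast fibre genes -0.419 with the complex I mean, adipocyte genes 0.370, endothelial genes 0.345 and leukocyte genes -0.377. Testis germ cell transcripts gave -0.319 over all arrays, -0.0069 without C20 and P31, and -0.696 without C18 and C24. Within groups they gave 0.067 in the 7 controls and -0.805 in the 8 treated animals, and their part in the co-variation was not tested further. Thymocyte and hepatocyte transcripts gave -0.017 and 0.026.

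**Figure D5:**
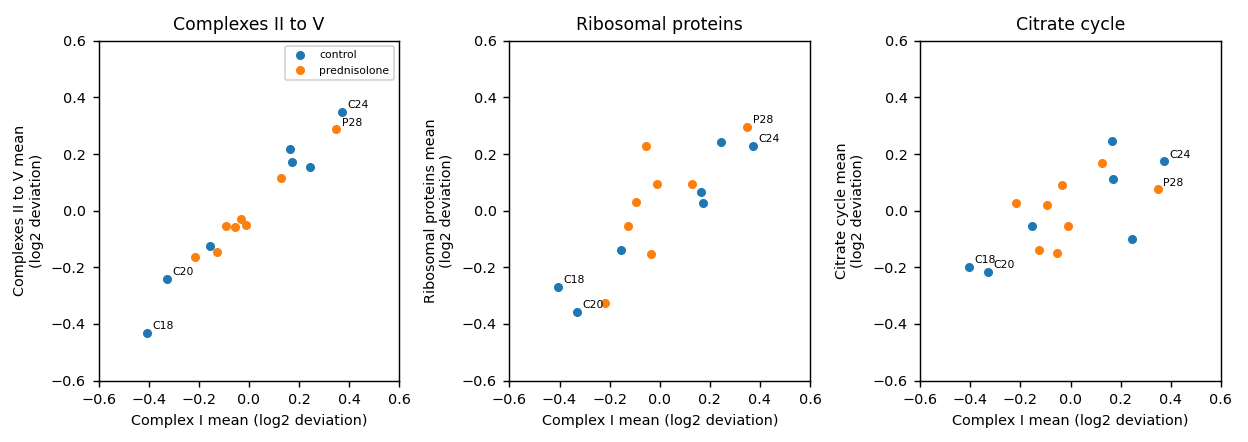
Mean log2 deviation of 37 complex I subunits (x axis) against that of 39 subunits of complexes II to V, 73 cytosolic ribosomal proteins and 13 citrate cycle enzymes (y axes), 1 point per animal, 7 control and 8 treated. C18 and C20 lie at the lower left and C24 and P28 at the upper right, and the points are closest to a line for complexes II to V.

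The rest of the pathway gave no call either, with 0 genes at an adjusted p under 0.05 (limma) in every list described here. Of 15 measured assembly factors, 0 had an unadjusted p under 0.05, and 11 were higher and 4 lower in mean in treated animals. Their smallest p-values belonged to FOXRED1, an oxidoreductase needed for assembly, at 0.30 (-0.00075 to 0.61), and NUBPL, which inserts iron-sulfur clusters, at 0.78 (-0.13 to 1.70) over 5 controls and 7 treated animals. Of 40 subunits of complexes II to V, 26 were lower and 14 higher in mean, and 1 had an unadjusted p under 0.05. This was ATP5MF, a membrane subunit of ATP synthase, at 0.39 (0.0026 to 0.78), while its catalytic subunit ATP5F1B differed by -0.14 (-0.34 to 0.047).

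Of 13 citrate cycle enzymes 7 were lower and 6 higher in mean, none with an unadjusted p under 0.05, and DLST and IDH3A, subunits of the 2-oxoglutarate and isocitrate dehydrogenases, had the smallest p at differences of 0.35 and -0.13. Among 16 measured regulators of mitochondrial biogenesis 1 had an unadjusted p under 0.05. It was NRF1, a transcription factor for respiratory genes, at 0.80 (0.066 to 1.53), but its probe lay well above background on 2 of the 8 treated arrays. The coactivator PPARGC1A differed by -0.29 with a wide interval (-1.50 to 0.93). Over 14 of these regulators the mean had r = 0.160 with the complex I mean.

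Mitochondrially encoded subunits, which include the proton pumps of the complex, were lower in mean in treated animals for 6 of 7 genes, none with an unadjusted p under 0.05. MT-ND1, which forms the entry of the quinone site in the membrane, measured 15.95 ± 0.19 (SD, n = 8) after prednisolone and 16.19 ± 0.36 (SD, n = 7) without it, a difference of -0.24 (-0.56 to 0.082). MT-ND3 differed by -0.20 (-0.49 to 0.10), and MT-ND6, which is read from the opposite strand of mitochondrial DNA, by 0.059.

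NDUFA4L2, a hypoxia-inducible relative of NDUFA4 outside the list of 37, differed by -0.13 (-0.80 to 0.54) and had r = 0.887 with the complex I mean.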

How the data were processed

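Total RNA of biceps brachii from 15 animals was measured on 1-colour arrays. The deposited value table holds a linear intensity per spot. The submitters' processing notes name R 2.11.1, and per the file headers Feature Extraction 9.5.1.1 made the scanner output. How the authors scaled arrays is not stated in those sources. Table and scanner intensity correlated across spots with r from 0.999789 to 0.999991 on the 8 treated arrays. The other deposited columns used were detection and saturation flags, per the file headers; scanner output of controls was not used here.

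Log2 values were shifted to a common 75th percentile of the 14324 probes measured on every one of 15 arrays, spots averaged, and probes with at least 3 values per group (20894 of 21475) tested with limma 3.58.1 (lmFit, eBayes) in R 4.3.3, Benjamini-Hochberg adjusted, threshold 0.05. A gene's brightest probe represented it. Names came from RefSeq through the annotation's accessions for 36 subunits and its symbol for NDUFS8. On simulated data of this comparison with 14324 probes, 71 of 100 shifts of 1 log2 unit and 94 of 100 of 2 were found. There were 8 false calls. Probes were simulated independently of each other, unlike in the real data, and smaller shifts were not simulated. Members and lists were chosen with earlier results of these data known; the mitochondrially encoded and ribosomal lists were added after the values were seen. Full values are given for the 8 smallest p, the 4 largest and smallest SDs, the 4 highest and lowest r, NDUFA4 and the 2 smallest p of other lists. The number of arrays limits the precision.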

Additional observations from a re-analysis of the deposited data

Results flagged for a closer look

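In 4 of 74 groups of values, a subunit in 1 group of animals each, the highest or lowest animal stood apart from the others by Dixon's criterion, or 5.41%, where chance gives about 1 in 20. All 4 were the treated animal P28 at the top of its group. NDUFA6 measured 15.36 in P28 on the log2 scale and 14.94 in the next treated animal. NDUFB4, a distal membrane arm subunit, measured 14.74 against 14.19. NDUFB9 measured 13.77 against 13.30, and NDUFV2 17.14 against 16.84. The 4 subunits vary together, so these are not 4 separate events.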

How the results depend on the processing

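No subunit was called under any setting tried, and none reached an unadjusted p under 0.05. No paired analysis was possible because the replicate numbers are animal numbers and the groups share none. NDUFV2 was -0.0080 as deposited, -0.017 with array weights and -0.012 without C20 and P31, the pair highest in testis transcripts. NDUFS3 was 0.0032 with equal medians and NDUFC1 -0.020 with array weights. Leaving out single animals moved NDUFA1 between -0.13 and 0.064, NDUFA13 between -0.093 and 0.0095, NDUFA3 between -0.12 and 0.067, NDUFB2 between -0.052 and 0.11, NDUFC1 between -0.035 and 0.20, NDUFS3 between -0.079 and 0.028, and NDUFV2 between -0.048 and 0.041. The other 11 named subunits kept their sign under every setting. Without single animals the count of negative means ran from 12 to 31 and of negative medians from 23 to 37; the median difference ran from -0.088 to 0.039. The count with all but at most 1 treated animal below the control median ran from 2 to 20, and was 5 with equal medians. Without single animals the median pair r ran from 0.652 to 0.757, and in treated animals from 0.311 to 0.656. Under the other settings it ran from 0.615 to 0.705, and in treated animals from 0.456, as deposited, to 0.625. The count with the larger SD in controls ran from 21 to 30. Among all genes, 480 had an unadjusted p under 0.05, between 301 and 1093 under the alternatives, and 1 was called without C23, without P31, or without C20 and P31. The alternatives without C20 and P31, and those for medians, for the count below the control median and for pairs within a group, were chosen after seeing the data.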

Other observations

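Of 10706 other genes with a value on all arrays, 47 had r above 0.9 with the complex I mean over the 15 arrays, group means removed. The nearest were SCOC at 0.958, RBIS at 0.957, the cytochrome c oxidase subunit COX7C at 0.955, the mitochondrial ribosome assembly factor MALSU1 at 0.950 and the esterase ESD at 0.950. There were 8 genes below -0.9, led by the chromatin remodeller CHD7 at -0.916, ASB1 at -0.914 and the histone demethylase KDM5A at -0.914. These are ranks within 15 arrays that share RNA sample and scaling, given with no p.

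Records similar to NDUFB8 and NDUFC2 that RefSeq does not name, LOC615540 and LOC617191, have probes of their own. The first exceeded background clearly on 1 of 8 treated arrays. The second did on all 8, differed between groups by 0.11 (-0.19 to 0.41), and had r = 0.430 with the NDUFC2 probe.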
